A study of Mus musculus with 6 samples.

Results

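The 78 genes described here have symbols of mitochondrial ribosomal proteins, although the product of Mrps36 is now placed outside the ribosome. They are the protein-coding rows of the deposited count table whose symbol starts with Mrpl or Mrps and a number, out of 53801 rows in all. There were 49 Mrpl genes, named for the large subunit, and 29 Mrps genes, named for the small one. Their RNA was measured in cultures grown from the stromal vascular fraction (SVF), which is what remains of fat tissue once mature adipocytes are removed and includes their progenitors. The cells came from the inguinal white fat of wild-type mice and of mice labelled Ythdf1 knockout. After 4 days of adipogenic induction in culture, total RNA was depleted of ribosomal RNA and sequenced as paired reads of 150 bp. There were 3 libraries of each genotype, described by the submitters as biological replicates. All 6 libraries share the tissue, the culture and the induction. Beside the genotype, the library names differ in a serial number and a suffix, whose meanings the labels do not give. The serial numbers of the wild-type libraries all precede those of the knockout libraries. The suffix was L0 for knockout replicate 2 and wild-type replicate 3 and L1 for the rest. The labels do not give the animals' age, sex or strain, the part of Ythdf1 that was removed, or whether animals were pooled.

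Mitochondria carry their own ribosome, which translates the few proteins encoded in mitochondrial DNA, all of them membrane subunits of the respiratory chain and ATP synthase. Its RNA core is transcribed from the mitochondrial genome, a 12S rRNA in the small subunit and a 16S rRNA in the large one. Every protein of the particle is encoded in the nucleus, made in the cytosol and imported. Some of these proteins have a counterpart in bacterial ribosomes, and others are found only in mitochondria. Adipocytes form many mitochondria as they differentiate, so the genes are of interest in a culture that is becoming fat. Ythdf1 encodes a cytoplasmic protein that binds m6A, a methyl mark on mRNA.

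Total counts ran from 16619605 to 20089138 per library, and 3 counts corresponded to between 0.146 and 0.185 CPM (counts scaled to library size, here with TMM factors). The targeted gene Ythdf1 was at 45.1, 42.8 and 43.5 CPM in knockout replicates 1, 2 and 3 and at 63.0, 62.1 and 60.4 CPM in wild-type replicates 1, 2 and 3. Its log2 fold change was -0.50 ± 0.08 (SE), so much of its whole-gene signal remained. All 12 adipocyte markers checked rose in the knockout. Their summed level was 17430 to 23500 CPM in knockout and 3919 to 6060 CPM in wild type. Of 12 progenitor and fibroblast markers 9 fell, with sums of 18360 to 19650 against 39110 to 42410 CPM. Macrophage markers rose for 9 of 10, and their sum was 292, 295 and 780 CPM in knockout replicates 1 to 3 against 90.6 to 165 CPM in wild type. Of 9 gut epithelium markers 8 fell, with sums of 4.01 to 6.34 against 54.8 to 69.9 CPM. Of 5 tested endothelial markers 1 rose, with sums of 24.3 to 34.0 against 21.9 to 27.8 CPM. In such bulk cultures a higher share of adipocytes and more of a transcript in each adipocyte cannot be told apart.

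Most genes of the mitochondrial ribosome were higher in the knockout and none was called lower. Of the 77 members with enough counts to test, 59 rose, 0 fell and 18 did not pass. Passing meant a Benjamini-Hochberg adjusted p under 0.05, computed over all 14816 genes tested by the quasi-likelihood method of edgeR. Of all genes tested 44.3% passed, 22.6% as rises and 21.7% as falls, whereas 76.6% of the members rose. The median log2 fold change of the members was 0.60, a 1.51-fold rise, and it was 0.01 over all genes tested. By direction alone 75 of 77 were positive, and the range ran from -0.25 for Mrpl52 to 1.42 for Mrpl1. The knockout libraries lay wholly above the wild-type libraries for 62 members (80.5%), where this held for 27.9% of all genes tested. They lay wholly below for 0 members, and for 27.3% of all genes tested.

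The rises were moderate. Of the 59 members called, 20 changed by less than 1.5-fold, 32 by 1.5-fold or more but less than 2-fold, and 7 by at least 2-fold. A rise of at least 2-fold was thus called for 9.09% of the members, close to the 8.95% of all genes tested. The summed level of all 78 members was 2358, 2839 and 2188 CPM in knockout replicates 1, 2 and 3 and 1617, 1667 and 1577 CPM in wild-type replicates 1, 2 and 3. The genotypes did not overlap. The mean sum was 51.9% higher in knockout, at 2462 ± 337 against 1620 ± 45.4 CPM (SD, n = 3 each).

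**Figure D1:**
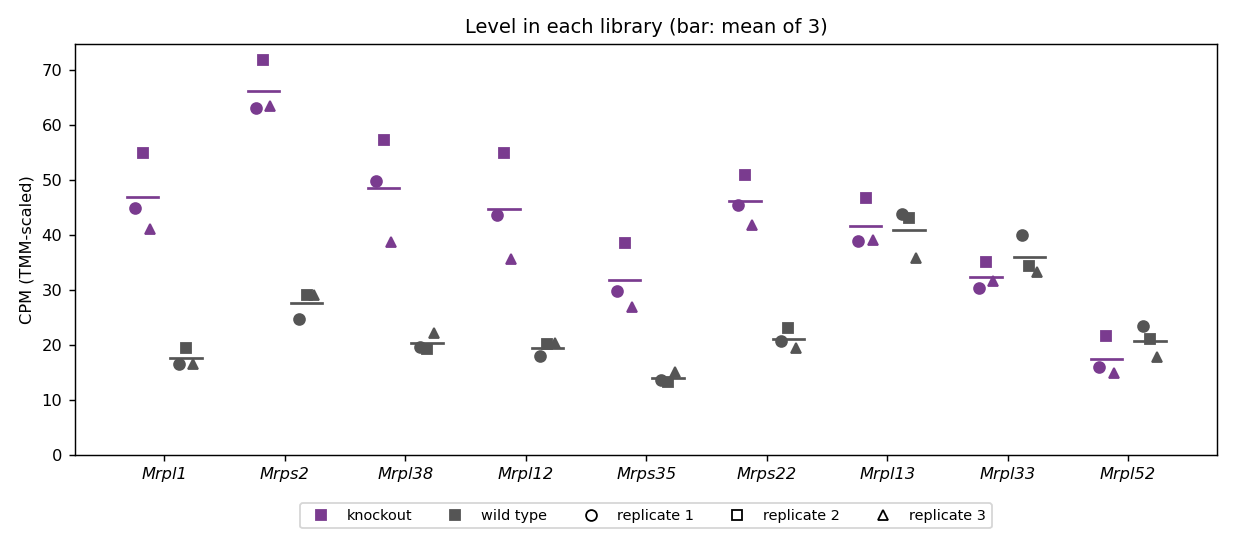
CPM of 9 members in each library, with knockout in purple, wild type in grey, a symbol for each replicate number and a bar for the mean of 3. The first 6 genes separated the genotypes, with Mrps2 at 63.1 to 71.9 CPM in knockout and 24.7 to 29.1 CPM in wild type, whereas Mrpl13, Mrpl33 and Mrpl52 overlapped.

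Promoters are shown for the members with the highest and lowest log2 fold changes that have a window, and for 3 members that start close to a gene on the opposite strand. The windows run from 250 bases before to 50 bases after the transcript start, on the gene's strand, from RefSeq on GRCm38.p6, which held 69 of the 78 genes. Capitals mark matches, on either strand, to a core of the site of NRF1, a factor of mitochondrial gene programmes (GCGCA, any base, then GCGC), of the ETS family that includes GABP (CCGGAAG), or of YY1 (AAGATGGC). Mrpl1, Mrps2 and Mrpl12 rose 2.68-fold, 2.40-fold and 2.29-fold, whereas Mrpl52 and Mrpl33 had negative values that did not pass. Mrps27, Mrpl51 and Mrpl57 have the close neighbours. In that order the windows are chr5:96209865-96210164, chr2:28467816-28468115, chr11:120484387-120484686, chr14:54426659-54426958, chr5:31613701-31614000, chr13:99344536-99344835, chr6:125191950-125192249 and chr14:57825989-57826288, all 8 on the plus strand.
Mrpl1: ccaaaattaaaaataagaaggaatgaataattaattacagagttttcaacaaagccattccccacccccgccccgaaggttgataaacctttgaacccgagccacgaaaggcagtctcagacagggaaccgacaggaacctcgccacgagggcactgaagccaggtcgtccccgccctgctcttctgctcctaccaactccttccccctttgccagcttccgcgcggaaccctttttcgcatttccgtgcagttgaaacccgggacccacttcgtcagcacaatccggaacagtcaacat
Mrps2: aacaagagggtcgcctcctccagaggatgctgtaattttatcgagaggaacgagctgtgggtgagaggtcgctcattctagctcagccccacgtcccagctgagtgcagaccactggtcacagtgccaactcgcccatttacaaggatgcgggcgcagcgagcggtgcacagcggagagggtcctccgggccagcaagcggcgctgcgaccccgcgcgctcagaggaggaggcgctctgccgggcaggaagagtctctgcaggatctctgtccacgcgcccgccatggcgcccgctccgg
Mrpl12: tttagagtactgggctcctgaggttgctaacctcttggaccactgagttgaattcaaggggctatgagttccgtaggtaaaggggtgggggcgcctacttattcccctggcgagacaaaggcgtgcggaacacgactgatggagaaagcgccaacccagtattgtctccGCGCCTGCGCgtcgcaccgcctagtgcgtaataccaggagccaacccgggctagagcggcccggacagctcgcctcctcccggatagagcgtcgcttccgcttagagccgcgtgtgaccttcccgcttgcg
Mrpl52: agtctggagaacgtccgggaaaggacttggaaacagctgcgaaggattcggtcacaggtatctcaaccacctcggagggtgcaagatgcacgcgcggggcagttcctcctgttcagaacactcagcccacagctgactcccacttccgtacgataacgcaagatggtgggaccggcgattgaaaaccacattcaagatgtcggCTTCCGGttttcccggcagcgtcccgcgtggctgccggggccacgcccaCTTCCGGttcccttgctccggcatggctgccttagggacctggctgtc
Mrpl33: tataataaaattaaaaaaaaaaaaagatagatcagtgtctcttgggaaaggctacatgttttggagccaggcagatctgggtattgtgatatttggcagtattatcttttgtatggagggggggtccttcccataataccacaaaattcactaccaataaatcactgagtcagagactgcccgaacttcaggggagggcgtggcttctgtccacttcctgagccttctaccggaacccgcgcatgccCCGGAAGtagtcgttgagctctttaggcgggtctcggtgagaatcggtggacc
Mrps27: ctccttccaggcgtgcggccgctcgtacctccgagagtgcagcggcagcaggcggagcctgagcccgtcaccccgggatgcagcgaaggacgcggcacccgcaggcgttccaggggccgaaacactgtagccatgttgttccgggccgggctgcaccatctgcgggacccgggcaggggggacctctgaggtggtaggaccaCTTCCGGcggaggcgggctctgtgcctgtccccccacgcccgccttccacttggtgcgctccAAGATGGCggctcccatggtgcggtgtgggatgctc
Mrpl51: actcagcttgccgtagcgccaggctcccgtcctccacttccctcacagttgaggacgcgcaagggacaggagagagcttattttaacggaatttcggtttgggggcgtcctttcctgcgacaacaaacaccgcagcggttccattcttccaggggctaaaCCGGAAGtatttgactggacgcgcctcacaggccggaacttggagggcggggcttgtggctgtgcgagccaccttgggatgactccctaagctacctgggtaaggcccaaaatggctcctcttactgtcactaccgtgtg
Mrpl57: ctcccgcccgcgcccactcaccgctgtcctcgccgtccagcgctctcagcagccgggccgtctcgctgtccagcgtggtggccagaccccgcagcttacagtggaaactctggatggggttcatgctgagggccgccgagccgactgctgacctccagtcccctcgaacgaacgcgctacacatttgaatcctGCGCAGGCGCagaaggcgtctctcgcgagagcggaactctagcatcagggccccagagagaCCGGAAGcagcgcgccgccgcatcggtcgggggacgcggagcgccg
The Mrpl1 and Mrps2 windows held none of the 3 motifs. With the start base counted as 1 and the base before it as -1, the NRF1 match of Mrpl12 began at -81 and that of Mrpl57 at -57. ETS matches began at -90 in Mrpl51, at -48 in Mrps27, at -3 in Mrpl33, at 5 in Mrpl57, and at -47 and 3 in Mrpl52. The YY1 match of Mrps27 began at 15.

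Each motif was found in a larger share of these windows than of all windows, and the difference was not tested. An NRF1 match was found in the windows of 13 of 69 members (18.8%), against 11.1% of the 10299 tested protein-coding genes in the same table and 7.44% of all 16522. An ETS match was found for 26 (37.7%), against 19.5% of tested and 13.4% of all genes. A YY1 match was found for 12 (17.4%), against 5.06% and 3.64%. The YY1 letters include ATG, and the members' matches in that orientation all lay after the transcript start, between bases 12 and 44. Whether they mark the start of translation was not tested. No window held a YY1 match that overlapped an ETS match. Tested members with an NRF1 match had a median log2 fold change of 0.60, and the 55 without had 0.56. With an ETS match the median was 0.48 and without it 0.62, and with a YY1 match 0.50 and without it 0.60. A match to these letters is not evidence that a factor binds there.

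Among large-subunit genes, Mrpl1, which encodes a protein of the stalk region where tRNA leaves the ribosome in bacteria, rose most. It was at 44.9, 54.9 and 41.1 CPM in knockout replicates 1, 2 and 3 and at 16.6, 19.5 and 16.5 CPM in wild-type replicates 1, 2 and 3. The lowest knockout value was above the highest wild-type value by more than the spread within either genotype. Its log2 fold change was 1.42 ± 0.13, a 2.68-fold rise with a 95% interval from 2.26 to 3.18 (edgeR adjusted p = 5.6e-06).
Mrpl38, a protein known only from mitochondrial ribosomes, was at 49.8, 57.3 and 38.8 CPM in knockout and at 19.6, 19.2 and 22.1 CPM in wild type. The groups lay well apart although the knockout libraries differed among themselves, and the fold was 2.40. Mrpl12 forms the flexible stalk that recruits translation factors, and in human cells its protein also binds the mitochondrial RNA polymerase. It was at 43.6, 54.9 and 35.6 CPM in knockout and at 17.9, 20.2 and 20.3 CPM in wild type, with a log2 fold change of 1.20 ± 0.15. Mrpl46 was lower in level, at 16.1, 21.9 and 14.7 against 8.77, 9.02 and 7.54 CPM, a 2.08-fold rise.

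Other large-subunit genes described for their known roles were Mrpl45, Mrpl44 and Mrpl58. Mrpl45, which in structures of the mammalian particle sits by the exit of the peptide tunnel and holds the ribosome to the inner membrane, was at 58.0, 69.0 and 47.6 CPM in knockout and 35.5, 37.3 and 40.4 CPM in wild type. The groups did not overlap, and it rose 1.54-fold (edgeR adjusted p = 0.0020). Mrpl44, whose protein has a ribonuclease III-like fold, was one of the steadiest members, at 34.0, 36.3 and 34.0 CPM against 20.1, 19.5 and 21.0 CPM. Its log2 fold change was 0.78 ± 0.09. Mrpl58, a peptidyl-tRNA hydrolase that rescues stalled ribosomes, was at 15.3, 18.8 and 14.2 CPM against 12.7, 12.4 and 11.5 CPM. Its call (log2 fold change 0.39, edgeR adjusted p = 0.035) ended without any 1 of 5 libraries, all but knockout replicate 3, with adjusted p from 0.062 to 0.13, and also with upper-quartile factors (0.066) and in DESeq2 (0.050).

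In the small subunit the leading gene was Mrps2, the counterpart of bacterial ribosomal protein S2. It was at 63.1, 71.9 and 63.6 CPM in knockout replicates 1, 2 and 3 and at 24.7, 29.0 and 29.1 CPM in wild-type replicates 1, 2 and 3. It was the most abundant small-subunit gene of the knockout in CPM, and it rose 2.40-fold with a 95% interval from 2.10 to 2.74 (edgeR adjusted p = 2.7e-06). Mrps35 and Mrps22, both known only from mitochondrial ribosomes, followed. Mrps35 was at 29.9, 38.6 and 26.9 against 13.6, 13.3 and 15.1 CPM, and Mrps22 was at 45.5, 51.0 and 41.9 against 20.7, 23.0 and 19.5 CPM. Their folds were 2.26 and 2.19, and neither pair of groups overlapped.
Mrps12, the protein of the decoding site at which streptomycin resistance arises in bacteria, changed less. It was at 16.3, 20.5 and 14.1 CPM in knockout and 12.0, 12.5 and 12.9 CPM in wild type, a 1.36-fold rise (edgeR adjusted p = 0.030). That call ended when any 1 of 5 libraries was left out, all but knockout replicate 3, with adjusted p from 0.060 to 0.11, and with upper-quartile factors (0.052).

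Mammals have 3 paralogs of bacterial protein S18, each of which occupies its own place in the particle. Mrps18b was at 17.9, 21.8 and 19.3 CPM in knockout and 10.5, 8.96 and 10.6 CPM in wild type, a 1.97-fold rise. Mrps18a, which despite its symbol lies in the large subunit, was at 33.6, 37.0 and 36.5 against 19.7, 20.8 and 22.5 CPM, a 1.70-fold rise. Mrps18c, which takes the place of the bacterial protein, was at 10.2, 14.0 and 8.97 against 6.96, 8.90 and 8.40 CPM. Its log2 fold change of 0.45 ± 0.19 did not pass (edgeR adjusted p = 0.071), although the lowest knockout value was just above the highest wild-type value. Whether the paralogs differed in their change was not tested.
Mrps30 is another gene named for the small subunit whose protein lies in the large one. It was at 29.4, 33.0 and 28.1 CPM in knockout and 16.0, 15.9 and 17.8 CPM in wild type, a 1.82-fold rise. Mrps36 encodes a protein now placed in the 2-oxoglutarate dehydrogenase complex and not in the ribosome. It was at 26.1, 27.4 and 21.6 against 14.8, 16.1 and 15.8 CPM and rose 1.61-fold.

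**Figure D2:**
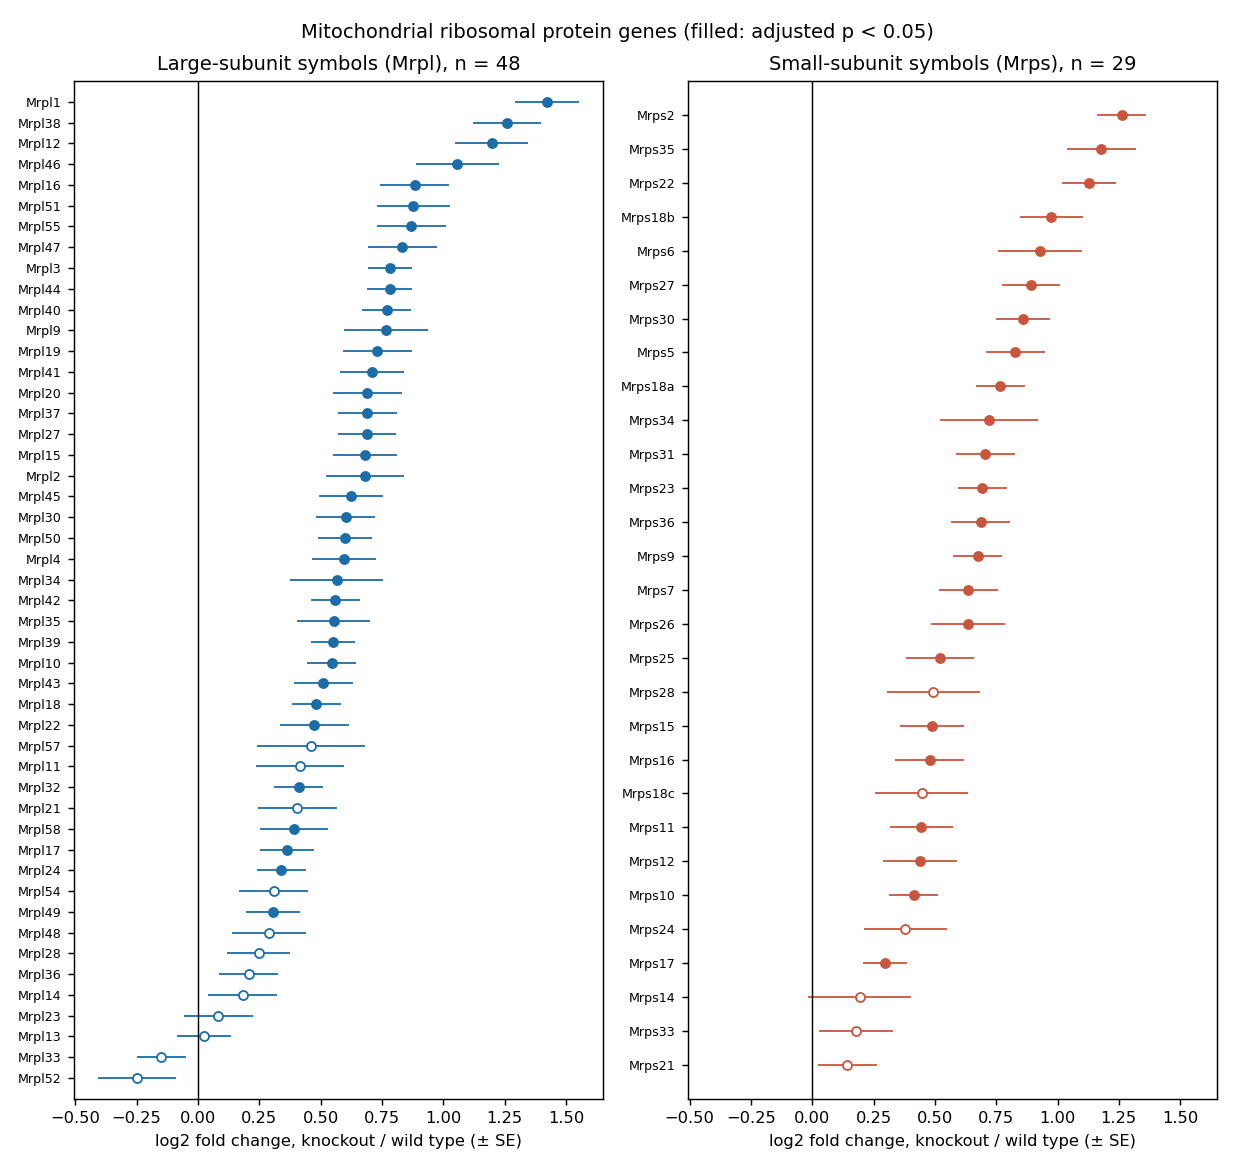
Log2 fold change (knockout over wild type, ± SE) of the 77 tested members, 48 with large-subunit symbols on the left and 29 with small-subunit symbols on the right, each in order of its value. Filled points passed an adjusted p of 0.05 (36 large, 23 small), and the only points left of 0 are Mrpl52 and Mrpl33.

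The 18 members that did not pass had log2 fold changes from -0.25 to 0.49, and 16 of them were positive. They were 12 large-subunit and 6 small-subunit genes. Mrpl13, the counterpart of bacterial L13, was at 39.0, 46.8 and 39.2 CPM in knockout and 43.8, 43.1 and 35.8 CPM in wild type. The groups overlapped. The ratio of 1.02 had a 95% interval running from 0.878 to 1.18, so the median rise of the members lay outside that interval. The log2 fold change of Mrpl13 turned slightly negative with upper-quartile factors (-0.03) and without knockout replicate 2 or wild-type replicate 3 (-0.06 each).
Mrpl33 was at 30.3, 35.1 and 31.7 against 40.1, 34.4 and 33.3 CPM (log2 fold change -0.15 ± 0.10). Mrpl52 was at 15.9, 21.6 and 14.9 against 23.5, 21.1 and 17.7 CPM (-0.25 ± 0.16). Both sets of values overlapped, and neither passed. Without knockout replicate 2, Mrpl52 was called lower (edgeR adjusted p = 0.029). Mrpl23 (0.08 ± 0.14) and Mrps21 (0.14 ± 0.12) completed the 4 nearest to no change with Mrpl13 and Mrpl33. Mrps21 was -0.003 without knockout replicate 2.
Mrpl53 had 0 counts in every library and was not tested. The annotation gives it 695 exon bases, 88.0% of its merged exons, in common with the overlapping same-strand gene Gm42688, and reads from such bases may not be assigned to either. Gm42688 was itself at 0.398 to 0.792 CPM, so neither row shows how much Mrpl53 was expressed.

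Per kilobase of merged exon, the members' levels spanned 1.62 to 38.2 CPM per kb in wild type (median 7.95) and 2.70 to 42.2 CPM per kb in knockout (median 12.4). Mrps21 was the most abundant on this scale, at 42.2 CPM per kb in knockout and 38.2 in wild type, and was among those that did not pass. Mrps23 (29.4 against 18.2 CPM per kb, called) and Mrps7 (23.1 against 14.9, called) followed in the small subunit. In the large subunit the highest over all 6 libraries together were Mrpl54 (32.0 against 25.8 CPM per kb, not called), Mrpl34 (33.7 against 22.7, called) and Mrpl10 (29.0 against 19.8, called). Within a genotype, Mrpl12 was above Mrpl10 in knockout and Mrpl28 was above it in wild type. Mrpl34 was the one called member whose genotypes overlapped, with knockout replicate 3 at 14.4 CPM and wild-type replicate 1 at 14.5 CPM. Leaving out any 1 library other than knockout replicate 3 ended its call (adjusted p from 0.060 to 0.097), as did limma-voom (0.062). The order depends on the length used, since annotated long isoforms lengthen the merged exons of some genes. With the median length of coding transcripts, Mrpl30 led the large subunit at 88.1 CPM per kb over all 6 libraries and Mrps21 still led the small subunit at 73.4.

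Genes of both subunits rose, and whether their changes differed was not tested. Of 48 tested Mrpl genes 36 rose (75.0%, median log2 fold change 0.56), and of 29 Mrps genes 23 rose (79.3%, median 0.64). Summed, the large-subunit genes were at 1546, 1870 and 1420 CPM in knockout and 1089, 1119 and 1045 CPM in wild type, a ratio of means of 1.49. The small-subunit genes were at 812, 969 and 768 against 528, 548 and 532 CPM, a ratio of 1.58. The mean log2 level of large-subunit genes exceeded that of small-subunit genes by 0.202, 0.223 and 0.184 in knockout replicates 1, 2 and 3 and by 0.304, 0.287 and 0.254 in wild-type replicates 1, 2 and 3. The excess was thus smaller in each knockout library, by 0.079 on average. With Mrps30 and Mrps18a moved to the large subunit and Mrps36 left out, the 2 subunits had the same median, 0.58, and the difference between genotypes was 0.053.

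A split by origin gave larger values for the proteins found only in mitochondria, counting by the standard names of ribosomal proteins, under which Mrps18a and Mrps18b fall on the mitochondrial side. Of 30 such genes tested 25 rose (83.3%) with a median log2 fold change of 0.69, and of 46 with a bacterial counterpart 33 rose (71.7%) with a median of 0.49. In the small subunit the medians were 0.71 for 10 mitochondria-specific genes and 0.46 for 16 others, and in the large subunit 0.61 for 20 and 0.56 for 30. The difference between these classes was not tested.

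Members with longer transcripts passed more often. With a boundary of 1000 bases for the median coding transcript, chosen after the values were seen, 39 of 42 longer members rose (92.9%, median log2 fold change 0.68) and 20 of 35 shorter ones did (57.1%, median 0.47). Over all tested protein-coding genes the shares were 23.4% and 26.2%, with medians of -0.01 and 0.04. Across the 77 members Spearman's rho between log2 fold change and this length was 0.37, as a description, since the points share the same 6 libraries.

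One library stood apart within its genotype, the only knockout library with the suffix L0. Knockout replicate 2 had the highest CPM of the 3 knockout libraries for all 77 tested members, and for 37.1% of all genes tested. Knockout replicate 3 was the lowest for 59 members, and for 37.2% of all genes tested. Wild-type replicate 3, the other L0 library, had the lowest wild-type sum, 1577 CPM, and was the lowest of its genotype for 39 members. The share of all genes lowest in wild-type replicate 3 was not computed. Knockout replicate 2 was also the highest for 79 of 81 tested nuclear subunits of oxidative phosphorylation and for 77 of 78 cytosolic ribosomal protein genes, and in the summed adipocyte markers. Members were higher in it than in the mean of the other two knockout libraries by a median log2 value of 0.31. That value was 0.13 over tested protein-coding genes with coding transcripts under 1000 bases and -0.03 over longer ones. The median coefficient of variation of the members was 14.0% in knockout and 7.79% in wild type. Without knockout replicate 2 the median log2 fold change of the members was 0.48 and 52 rose. In knockout replicate 3, in which members were lowest most often, the macrophage markers were highest. Without knockout replicate 3 the median was 0.71 and 65 rose. With the library-name suffix as a covariate the median was 0.58 and 60 rose. The part of cell make-up in the members' rise was not tested.

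**Figure D3:**
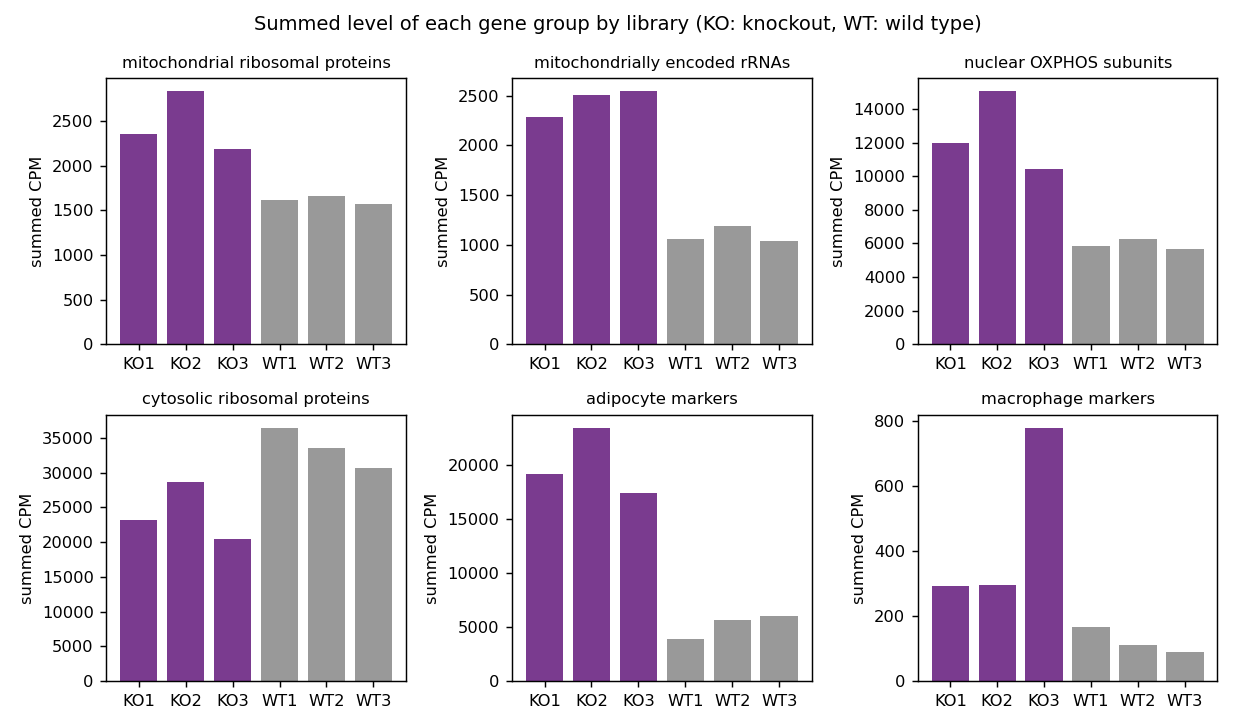
Summed CPM of 6 gene groups in each library (KO knockout in purple, WT wild type in grey, numbers are replicates, every axis from 0). The mitochondrial ribosomal proteins, mitochondrial rRNAs, nuclear subunits of oxidative phosphorylation (OXPHOS) and adipocyte markers were higher in all 3 knockout libraries, the cytosolic ribosomal proteins were lower, and the macrophage markers peaked in knockout replicate 3.

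Both RNA partners of the particle moved the same way. The 12S rRNA gene mt-Rnr1 was at 1190, 1270 and 1440 CPM in knockout and 371, 470 and 423 CPM in wild type, a 3.08-fold rise (edgeR adjusted p = 1.9e-06). The 16S rRNA gene mt-Rnr2 was at 1100, 1240 and 1110 against 688, 722 and 612 CPM, a 1.70-fold rise. These values come from libraries depleted of ribosomal RNA, so they are what depletion left. Of the 12 tested mRNAs of the mitochondrial genome, which this ribosome translates, 9 rose and 0 fell, and their sum was 43.9% higher in knockout.
Of 81 tested nuclear subunits of oxidative phosphorylation 73 rose and 1 fell. Their median log2 fold change was 0.98, beside 0.60 for the mitochondrial ribosome. Cytosolic ribosomal protein genes went the other way, with 58 of 78 lower, 1 higher and a median of -0.46. With upper-quartile factors the median of all genes was -0.05 and 55 of the mitochondrial ribosomal genes still rose.

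Genes whose proteins also belong to the particle but lack an Mrp symbol rose for 3 of 5. Ptcd3, an RNA-binding pentatricopeptide repeat protein of the small subunit, was at 72.1, 81.2 and 70.1 CPM in knockout and 34.6, 34.9 and 32.2 CPM in wild type, a 2.20-fold rise (edgeR adjusted p = 2.8e-06). Gadd45gip1 and Aurkaip1 rose 1.71-fold and 1.38-fold. Chchd1 showed no rise, with a log2 fold change of -0.01 ± 0.17 (edgeR adjusted p = 0.96), and its genotypes overlapped. Dap3, a GTP-binding protein of the small subunit, was at 66.0, 75.8 and 57.2 against 54.4, 58.3 and 52.2 CPM, short of the threshold at an edgeR adjusted p of 0.059.

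Factors that work on or with the ribosome also rose, none of the first 3 groups having a gene called lower. Of 13 translation factors 9 rose (median log2 fold change 0.61). They included the elongation factors Gfm1, at 92.8, 111 and 83.0 against 26.7, 35.5 and 40.6 CPM, and Tufm, at 117, 136 and 104 against 56.4, 63.5 and 55.0 CPM. Gfm2, which splits the subunits after termination, rose 1.83-fold.
Of 26 genes of ribosome assembly and rRNA modification 13 rose (median 0.40). The helicase gene Ddx28 rose 2.61-fold, the 16S rRNA methyltransferase gene Mrm3 2.26-fold and Fastkd2 1.62-fold. Of 20 mitochondrial aminoacyl-tRNA synthetase and amidotransferase genes 15 rose (median 0.55). The 3 with the smallest p were Fars2 (2.15-fold), Tars2 (1.69-fold) and Rars2 (1.59-fold).
Of 23 genes of mitochondrial RNA synthesis and stability 16 rose and 1 fell (median 0.62). Lrpprc, which keeps mitochondrial mRNAs stable, was at 88.5, 100 and 78.8 against 30.1, 32.3 and 37.9 CPM. Fastkd1 rose 3.17-fold and Tbrg4 2.22-fold. The one that fell was Rexo2, an oligoribonuclease gene, by 0.42 on the log2 scale. It was named after its value was seen.

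The members are spread over 17 chromosomes, with 11 on chromosome 11 and 8 on chromosome 17. For 33 of the 78, a protein-coding gene on the opposite strand starts within 1000 bases, so that the pair may share one promoter region. The share of all genes with such a neighbour was not computed. Of the 31 neighbours tested 10 rose and 4 fell, with a median log2 fold change of 0.23, against a median of 0.60 for the members of these pairs. Of these neighbours 2, Mrpl46 and Mrps11, are themselves members and both rose. Without them 8 of 29 rose and 4 fell, with a median of 0.20. For all genes tested the shares were 22.6% and 21.7%.
Several pairs join genes of mitochondria. Mrps27, an RNA-binding protein of the small subunit, rose with Ptcd2, a mitochondrial RNA-binding protein gene that starts 81 bases away (log2 fold changes 0.89 ± 0.12 and 1.18 ± 0.12). Mrpl47 and the complex I gene Ndufb5 had 0.83 ± 0.14 and 1.03 ± 0.19. Mrps12 and Sars2, the mitochondrial seryl-tRNA synthetase gene, had 0.44 ± 0.15 and 0.64 ± 0.18. Mrpl46 and Mrps11 are themselves such a pair and had 1.06 ± 0.17 and 0.44 ± 0.13. In contrast, Mrpl36 did not pass (0.21 ± 0.12), whereas the complex I gene Ndufs6, which starts 29 bases away, rose (0.69 ± 0.15). Also among the neighbours that rose were Wdfy1 by Mrpl44 (1.23 ± 0.10) and Pnpla7 by Mrpl41 (0.64 ± 0.11). Twnk by Mrpl43 (0.43 ± 0.16) and Apba3 by Mrpl54 (0.27 ± 0.10) rose too.
Other neighbours fell while the ribosomal gene rose or did not pass. Mrpl51 rose (0.88 ± 0.15) beside Ncapd2, a condensin gene of mitosis whose start is 100 bases away and which fell (-0.54 ± 0.11). Distances are between annotated gene starts, and that of Mrpl51, at 125191801, lies upstream of its printed window. Mrpl27 rose (0.69 ± 0.12) beside Eme1, a DNA repair nuclease gene (-0.99 ± 0.26). Mrpl57, which did not pass (0.46 ± 0.22), starts 49 bases from the kinetochore gene Ska3 (-1.33 ± 0.19). Mrpl13 (0.03 ± 0.11) starts near Mtbp (-0.78 ± 0.18). Mrps18b rose 1.97-fold, and its neighbour Ppp1r10, 45 bases away, had a value of 0.00 ± 0.10. These pairs were picked after their values were seen. Where the exons of a pair overlap, as for Mrpl46 and Mrps11, reads cannot be assigned with certainty because the strand setting of the counting is not given.

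**Figure D4:**
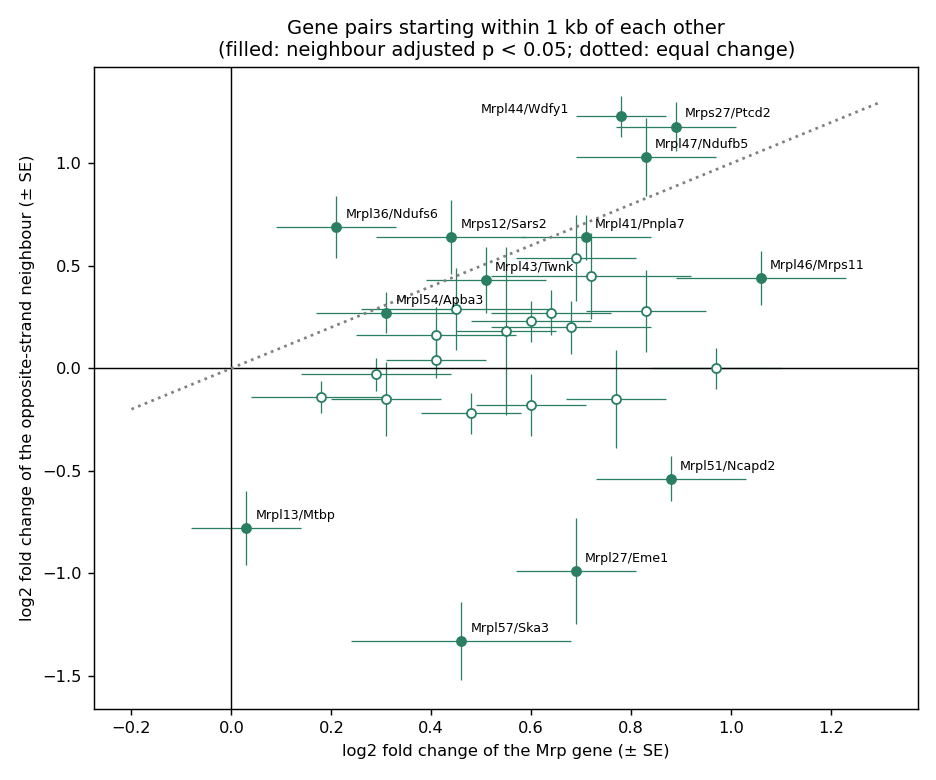
Log2 fold change (knockout over wild type, ± SE) of each tested member on the horizontal axis and of the opposite-strand gene starting within 1000 bases of it on the vertical axis, with each pair drawn once. Filled points have a neighbour that passed an adjusted p of 0.05, the dotted line marks equal change, and the neighbours Ncapd2, Eme1, Ska3 and Mtbp lie below 0.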

How the data were processed

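The authors deposited a table of unnormalized whole-number counts by Ensembl identifier for 3 knockout and 3 wild-type libraries. The submitters' processing notes name STAR, featureCounts, mm10 and GRCm38. Tool versions, the annotation release, strandedness and how multi-mapping reads were handled are not given there, so counts of overlapping genes and near-identical copies are uncertain. For 25 members, 47 pseudogene copies matched in BLAST+ 2.17.0 (at least 90% identity over at least 50% of the copy) and took at most 3.48% of a member's CPM.

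Symbols, biotypes and exons came from GENCODE mouse release M21 on GRCm38. Counts were tested with edgeR 4.0.16 (filterByExpr with minimum count 10, TMM, legacy robust quasi-likelihood test, genotype as single term). The SE of a log2 fold change was its size divided by the square root of its quasi-likelihood F, and 95% intervals use the normal quantile, which makes them somewhat narrow with 3 libraries a group. DESeq2 1.42.0, limma-voom 3.58.1 and other settings were alternatives. The fit was tested on simulated data. Floors of 3 counts cover counting error only. Replicates differed by more than sampling noise (chi-square per degree of freedom at least 10.2).

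Genes named were the 8 largest rises, every fall, the 3 most abundant per kb in each subunit, the 4 nearest to no change, 10 with a known place or paralogy, those too low to test and up to 3 of each list by p. Others were named after their values were seen. Members and lists were chosen with earlier results of these data known. Subunit and origin classes come from general knowledge of ribosome structures. P-values refer to the spread between libraries and cannot separate genotype from a culture or preparation difference that coincided with it. From the lists, 3 symbols were not matched to the table.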

Additional observations from a re-analysis of the deposited data

How the results depend on the processing

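Across the 16 alternative fits, 46 of the 59 members called higher were called in each, 13 lost the call in at least 1, and 3 changed sign in at least 1, all of which had not passed. The number higher was 55 with upper-quartile factors, 57 with DESeq2, 60 with the library-name suffix as a covariate, 65 without the low-count filter and 51 to 65 with 1 library left out. The number lower was 0 in every fit with all libraries and 0 to 1 with 1 library left out. At an unadjusted p under 0.05 it was also 0 in edgeR. The median log2 fold change ran from 0.48 to 0.71 with 1 library left out. Large-subunit genes called ran from 32 to 39, with medians from 0.46 to 0.68, and small-subunit genes from 19 to 26, with medians from 0.50 to 0.73. Of 101 pathway genes 67 rose, and 56 to 74 with 1 library left out, settings applied to that count after the data had been seen. With subunits taken from the ribosome structure, the difference between genotypes in the excess of large over small was -0.053 in place of -0.079. Mrpl13 changed sign with upper-quartile factors (-0.03) and without knockout replicate 2 (-0.06) or wild-type replicate 3 (-0.06), and without knockout replicate 2 so did Mrps21 (-0.003) and Mrps14 (from 0.19 to -0.10). With 1 library left out Mrpl13 ran from -0.06 to 0.08 and Mrps21 from -0.003 to 0.24, and the cause was not tested. With the replicate number as a block 60 members rose and 0 fell. Same-numbered libraries did not deviate together (correlations -0.116, 0.00813 and -0.138), so the numbers were not taken as pairs. How far depth limited the precision of members with few counts was not tested. Mrps28 and Mrpl34 had the same SE, 0.19, at mean knockout levels of 9.89 and 20.4 CPM. Mrpl41, also at 20.4 CPM in knockout, had an SE of 0.13. Near 10 CPM, Mrps18c and Mrps28 did not pass at changes under 1.5-fold, whereas Mrps11 passed at 1.36-fold.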

Other observations

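Of 14 tested genes that fold or degrade proteins within mitochondria, 11 rose and 0 fell, with a median log2 fold change of 0.98. The proteins handled include newly made products of the mitochondrial ribosome. The inner-membrane protease gene Afg3l2, which in mammals also processes Mrpl32, was at 128, 148 and 127 CPM in knockout and 55.9, 63.3 and 63.4 CPM in wild type. The genotypes did not overlap, and the rise was 2.21-fold (edgeR adjusted p = 3.6e-06). Its substrate Mrpl32 rose by 0.41 ± 0.10 on the log2 scale, and the difference between the 2 genes was not tested. The protease subunit gene Clpx rose 2.32-fold and the chaperone gene Dnaja3 2.42-fold. Spg7, which forms a complex with Afg3l2, was at 0.03 ± 0.09 on the log2 scale and overlapped between genotypes (edgeR adjusted p = 0.80).

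In 1 wild-type library the mitochondrial leucyl-tRNA synthetase gene Lars2 stood far from the rest. It was at 380 CPM in wild-type replicate 2, at 61.3 and 61.9 CPM in replicates 1 and 3, and at 75.4, 92.3 and 59.1 CPM in knockout replicates 1, 2 and 3. It was named after its values were seen, and the source of that count was not tested.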
